A study of Equus caballus with 4 samples.

Results

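The 10 genes described here belong to the amino acid response, which cells switch on through the transcription factor ATF4 when amino acids run short. They are *ATF4*, its relatives *ATF5* and *DDIT3*, and the target genes *TRIB3*, *SESN2*, *CHAC1*, *ASNS*, *PHGDH*, *PSAT1* and *SHMT2*. A probe was taken for a gene when the gene name in the array files was 1 of these 10 symbols. Of the 24998 distinct gene names on the array 9 matched, with 10 of the 43603 probes, since *PSAT1* had 2 probes and *CHAC1* had none under its name.

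The cells were equine satellite cells (ESC), the stem cells of skeletal muscle, taken from the semitendinosus of healthy colts under a year old and studied on day 3 of differentiation. HMB, a product of leucine breakdown, was added after day 2 for 24 h, at 50 µg by the sample labels and the same figure in µM by the study's methods, while control ESC received differentiation medium alone. Each of 4 two-colour arrays on 1 slide held HMB-treated ESC labelled with Cy5 and control ESC labelled with Cy3, and only RNA with an integrity number of at least 9.2 was used. As the dyes were never swapped, a bias of a probe towards a dye and an effect of HMB cannot be told apart. By the study's methods the cells of each flask were divided between an HMB-treated and a control plate. Neither they nor the labels say which colts lie behind an array or whether both its cultures came from the same colt, so the *P* values below measure only the spread between these samples. A description field calls the treated cells GO-treated and numbers every array as replicate 1, so the titles, which say HMB and number the replicates, were followed.

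When an amino acid is scarce, its uncharged transfer RNA activates the kinase GCN2, which phosphorylates the translation factor eIF2α. General protein synthesis then slows, while the *ATF4* message, which is held back by short upstream reading frames, is translated more. The ATF4 protein pairs with C/EBP and other bZIP partners and switches on genes for making, importing and sparing amino acids, and in skeletal muscle the same programme is known from amino acid shortage and from mitochondrial disease.

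The value of a probe on an array is the log2 ratio of HMB-treated over control ESC, from the lowess-normalised ratios deposited by the authors, so that 0 stands for equal signal and 1 for a 2-fold higher signal in HMB-treated ESC. Lowess normalisation removes, array by array, the dye difference shared by probes of like brightness. Dim probes were filtered out, and the 27384 that were tested had a given channel well above background on all 4 arrays. All 9 genes had a probe above background in both channels on every array. The SD of the tested log2 ratios was 0.35, 0.34, 0.39 and 0.48 on arrays 1 to 4. The mean ratio was tested against 0 with limma, which steadies the variance of each probe with that of all others, and *P* was adjusted over all tested probes by the Benjamini and Hochberg method, with a threshold of 0.05. Precision is limited by the number of arrays. Ratios were also recomputed from the raw signals with another background correction, normexp, followed by loess or, where the text says without lowess, by median centring alone. A value without lowess thus differs from the deposited one in the background step too. For some results the value with normexp and loess, which keeps the dye step, is given as well.

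*TRIB3* and *SESN2*, which restrain signalling to protein synthesis and growth, rose in HMB-treated ESC, by a factor of 1.40 and 1.45, and were higher on 4 of 4 arrays, although the mean log2 ratio of *SESN2* was 0.24 with normexp and loess and −0.01 without lowess, where it did not pass. The other 7 genes, including *ATF4* itself and the 4 biosynthetic enzymes, did not pass the threshold. So 2 of the 9 tested genes passed, both higher and 0 lower, where 22.8% of all tested probes passed, 11.2% higher and 11.6% lower. A count of 2 in 9 is near that background and is therefore no result about the group as a whole. Its median of mean log2 ratios was 0.12, beside 0.02 for all tested probes, and 6 of the 9 means were above 0, beside 54.1% for all tested probes. The group's median was 0.0 without array 1, 0.2 without array 4 and 0.05 with normexp and loess. It was 0.29 without lowess, and 0.44 when those ratios were centred on all probes, where all tested probes had 0.15. With arrays 1, 2, 3 and 4 left out in turn, limma called 0, 1, 0 and 2 of the 9 genes, with 2, 2, 3 and 4 at an unadjusted *P* under 0.05, and 4876, 2573, 2705 and 4955 of all tested probes, in place of 6257. The methods' t-test, which the study names in its supplementary workbook, called 0 of the 9, with 2 at an unadjusted *P* under 0.05. The plot of ratios by array shows how far the genes differed among themselves.

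**Figure D1:**
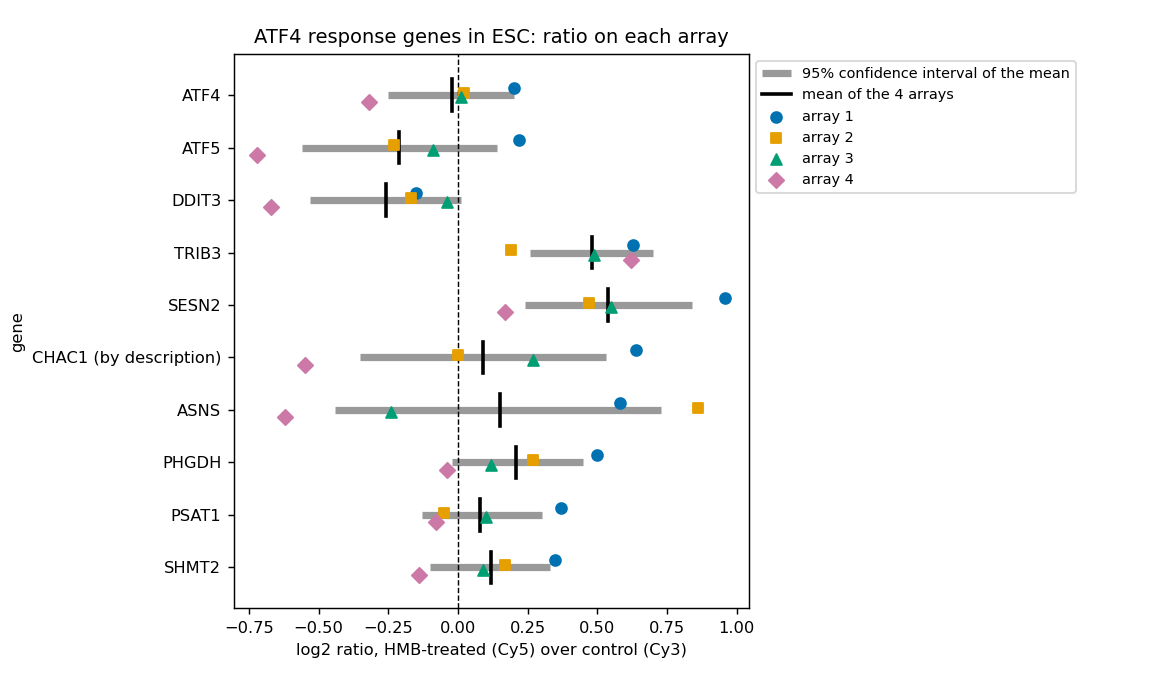
Log2 ratio of HMB-treated over control ESC for each gene on arrays 1 to 4, with the mean (black line) and its 95% confidence interval from limma (grey bar). The intervals of *TRIB3* (0.26 to 0.70) and *SESN2* (0.24 to 0.84) lie above 0, while array 4 gave the lowest ratio for 8 of the 9 genes matched by name.

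Of the 3 bZIP factors, ATF4 is the regulator after which the response is named. Its probe lies on the plus strand at chr28:36209673-36209732 of build EquCab1, and is shown because the call of *ATF4* depends on the dye normalisation. It is printed 5′ to 3′ with no capitals, since no stretch of it is singled out.
ATF4: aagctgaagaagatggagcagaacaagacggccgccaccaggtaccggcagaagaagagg
The log2 ratio of *ATF4* was 0.20, 0.02, 0.01 and −0.32 on arrays 1 to 4. It was thus above 0 on 3 arrays, barely so on arrays 2 and 3, and below 0 on array 4. The log2 signal of control ESC was 14.18, 14.10, 14.11 and 14.38, and that of HMB-treated ESC was 14.38, 14.12, 14.12 and 14.06. The 2 sets of signals overlapped, with array 4 the highest of the control and the lowest of the HMB-treated samples. The mean log2 ratio was −0.02 ± 0.22 (SD, *n* 4), with a 95% confidence interval from −0.25 to 0.20 and an adjusted *P* of 0.876. Without array 4 the mean was 0.08. It was −0.05 with normexp and loess and 0.32 without lowess, and *ATF4* then passed the threshold (adjusted *P* = 0.0178, in a range from 0.0147 to 0.970 over 15 alternatives).

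ATF5 is a bZIP factor whose message is translated under stress in much the same way as that of *ATF4*, and its probe lies on the plus strand at chrUn:234775721-234775780, a sequence not placed on a chromosome. The arrays gave log2 ratios of 0.22, −0.23, −0.09 and −0.72 in turn, higher on array 1 alone and lowest on array 4. Control ESC gave log2 signals of 11.88, 11.84, 11.65 and 11.81, with an SD of 0.10. In HMB-treated ESC they were 12.10, 11.61, 11.55 and 11.10, with an SD of 0.41. The spread of the ratio therefore came mostly from the HMB-treated channel. The mean of −0.21 ± 0.39 had a confidence interval from −0.56 to 0.14 and an adjusted *P* of 0.340. It was −0.35 without array 1 and −0.03 without array 4.

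DDIT3, also called CHOP, is a bZIP factor that ATF4 switches on and that promotes cell death when stress lasts, with a probe on the minus strand at chr6:72061698-72061757. The log2 ratio of *DDIT3* was −0.15, −0.17, −0.04 and −0.67, below 0 on 4 of 4 arrays and far lower on array 4 than on the others. Log2 signals were 12.70, 12.75, 12.57 and 12.91 in control ESC and 12.56, 12.57, 12.53 and 12.24 in HMB-treated ESC. The groups met at 12.57, the control signal of array 3 and the HMB-treated signal of array 2, and array 4 held both the highest control and the lowest HMB-treated signal. The mean was −0.26 ± 0.28, with a confidence interval from −0.53 to 0.01 and an adjusted *P* of 0.145. It was −0.33 without array 3 and −0.12 without array 4. The 3 factors had the 3 means below 0 in the group, although that of *ATF4* was above 0 without lowess (0.32) and those of *ATF5* and *DDIT3* were above 0 when ratios without lowess were centred on all probes (0.05 and 0.03).

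Next come the genes that act as brakes and sensors. TRIB3 is a pseudokinase that ATF4 and DDIT3 switch on, that binds ATF4 and damps its activity, and that can hold back the growth kinase AKT. SESN2 is a stress-induced sestrin that senses leucine and, when leucine is short, holds mTORC1 off through the GATOR complexes. Their probes are shown since they carry the only 2 calls in the group. The *TRIB3* probe lies on the minus strand at chr22:21945875-21948942 and the *SESN2* probe on the minus strand at chr2:26089267-26092271 of EquCab1. Both are 60 bases long but span 3068 and 3005 bases of genome, so each joins stretches that lie apart in the gene. They are printed 5′ to 3′, again with no stretch in capitals.
TRIB3: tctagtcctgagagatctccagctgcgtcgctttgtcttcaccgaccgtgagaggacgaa
SESN2: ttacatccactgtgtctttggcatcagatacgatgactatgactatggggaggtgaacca

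The log2 ratio of *TRIB3* was 0.63, 0.19, 0.49 and 0.62 on arrays 1 to 4. It was above 0 on 4 of 4 arrays, with array 2 the lowest. Log2 signals were 8.24, 8.10, 8.14 and 8.07 in control ESC and 8.87, 8.28, 8.63 and 8.69 in HMB-treated ESC. Every HMB-treated sample was above every control sample, which held for no other gene of the group, although the gap between the lowest HMB-treated and the highest control signal was small. The control signals varied less (SD 0.07) than the HMB-treated ones (SD 0.25). *TRIB3* rose by a mean log2 ratio of 0.48 ± 0.21, with a confidence interval from 0.26 to 0.70 and an adjusted *P* of 0.0158. The mean lay between 0.40 and 0.58 over the 15 alternative settings. Only the other dye normalisations and the omission of an array could move it, since the rest reuse the deposited ratios of all 4 arrays. *TRIB3* passed the threshold in 11 of the 15, with adjusted *P* from 0.0109 to 0.108. The call was lost without array 1 (adjusted *P* = 0.0504) and without array 3 (adjusted *P* = 0.0618). It was also lost with the methods' t-test and without the filter on dim probes.

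The log2 ratio of *SESN2* was 0.96, 0.47, 0.55 and 0.17. All 4 arrays were above 0, array 1 by most and array 4 by least. Log2 signals were 4.88, 4.82, 4.77 and 4.70 in control ESC and 5.84, 5.29, 5.32 and 4.86 in HMB-treated ESC. The groups overlapped only through array 4, whose HMB-treated signal was just under the highest control signal. *SESN2* rose by a mean log2 ratio of 0.54 ± 0.33 with the deposited ratios, with a confidence interval from 0.24 to 0.84 and an adjusted *P* of 0.0284. Its spot was dim, since the lowest control signal marked as well above background was 4.04, 3.97, 3.75 and 4.18 on arrays 1 to 4. The mean was 0.24 with normexp and loess, which keeps the call, and −0.01 without lowess. The adjusted *P* ranged from 0.0210 to 0.977 over the 15 alternatives, of which 7 kept the call. The call was also lost without array 1 (adjusted *P* = 0.0528), array 2 (0.079) or array 3 (0.0921).

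**Figure D2:**
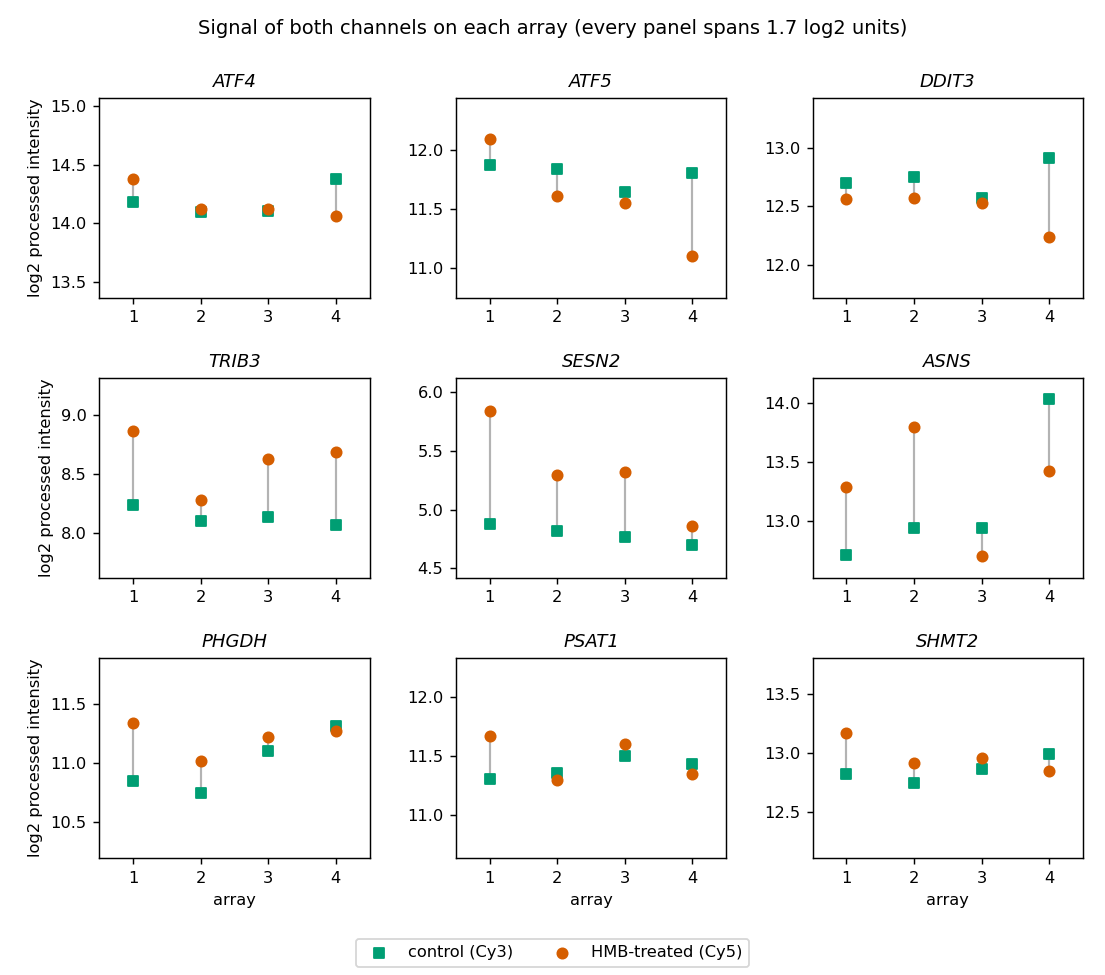
Log2 processed intensity of control (Cy3, squares) and HMB-treated (Cy5, circles) ESC on each array, 1 panel for each gene, with each array's pair joined. The channels of *TRIB3* do not overlap, whereas in *ASNS* the control sample of array 4 (14.03) stands above the other control samples.

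CHAC1 breaks down glutathione and is a target of the ATF4 pathway. No probe carries its symbol, but 1 probe, whose name is a transcript identifier, has a description that spells out ChaC cation transport regulator homologue 1. This probe, on the minus strand at chr1:144944296-144944355, gave log2 ratios of 0.64, 0.00, 0.27 and −0.55. It was highest on array 1 and lowest on array 4. Its mean was 0.09 ± 0.50, with a confidence interval from −0.35 to 0.53 and an adjusted *P* of 0.742, and without array 1 it was −0.09. It was found after the values had been seen and is in none of the counts of genes past the threshold.

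The plot of signals in both channels shows *ASNS*, the enzyme that makes asparagine from aspartate with nitrogen from glutamine, as the gene of the group with the widest spread. Its probe lies on the minus strand at chr4:40330514-40330573. On arrays 1 to 4 the log2 ratio was 0.58, 0.86, −0.24 and −0.62, above 0 on arrays 1 and 2 and below 0 on arrays 3 and 4. Log2 signals were 12.71, 12.94, 12.94 and 14.03 in control ESC and 13.29, 13.80, 12.70 and 13.42 in HMB-treated ESC. Both groups were spread widely and overlapped, with array 4 highest among the control samples and array 2 highest among the HMB-treated ones. The SD of the ratio, 0.69, was larger than that of 99.1% of tested probes, whose median SD was 0.16. The mean of 0.15 had a confidence interval from −0.44 to 0.73 (adjusted *P* = 0.693), an interval wide enough to hold a rise or a fall. It was −0.09 without array 2.

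PHGDH takes the first step from glycolysis to serine, and its probe lies on the plus strand at chr5:33907209-33907268. Its log2 ratio was 0.50, 0.27, 0.12 and −0.04, above 0 on arrays 1 to 3 and next to 0 on array 4. Log2 signals were 10.84, 10.74, 11.10 and 11.31 in control ESC and 11.34, 11.01, 11.22 and 11.27 in HMB-treated ESC. The groups overlapped, with array 4 the highest of the control samples. The mean was 0.21 ± 0.23, with a confidence interval from −0.02 to 0.45 and an adjusted *P* of 0.160. It was 0.12 without array 1, 0.3 without array 4 and 0.18 with normexp and loess. Without lowess it was 0.29 and past the threshold, as it was in 2 of the 15 alternatives.

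PSAT1 takes the next step of serine synthesis, moving an amino group from glutamate. Its 2 probes lie on the minus strand of chromosome 23 and share 40 bases, which are in capitals, so they are not independent measures of the gene. The upstream probe, which stands for the gene in the counts, is at chr23:3920562-3920621 and the downstream probe at chr23:3920542-3920601, and they are shown, 5′ to 3′, for this overlap.
PSAT1 upstream probe: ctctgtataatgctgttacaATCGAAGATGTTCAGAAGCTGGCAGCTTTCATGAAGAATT
PSAT1 downstream probe: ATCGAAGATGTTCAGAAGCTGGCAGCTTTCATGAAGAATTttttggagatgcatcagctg
The upstream probe gave log2 ratios of 0.37, −0.05, 0.10 and −0.08 and the downstream probe 0.34, −0.08, 0.10 and −0.10. Both were highest on array 1 and lowest on array 4. The mean of the upstream probe was 0.08 ± 0.21, with a confidence interval from −0.13 to 0.30 and an adjusted *P* of 0.534, and that of the downstream probe was 0.06 with an adjusted *P* of 0.649. Without array 1 the mean of the upstream probe was −0.01.

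SHMT2 splits serine into glycine and a folate-bound carbon unit in mitochondria, and its probe lies on the plus strand at chr6:71860779-71860838. Its log2 ratio was 0.35, 0.17, 0.09 and −0.14, above 0 on arrays 1 to 3 and below 0 on array 4. The mean was 0.12 ± 0.20, with a confidence interval from −0.10 to 0.33 and an adjusted *P* of 0.370. It was 0.05 with normexp and loess, 0.04 without array 1 and 0.2 without array 4, and did not pass in any of these. Without lowess the mean was 0.29 and past the threshold. *SHMT2* and *DDIT3* were the only 2 genes of the group with probes on a shared chromosome, 200859 bases apart on chromosome 6, and their means had opposite signs.

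Across arrays most of the genes shared an order. Array 4 gave the lowest ratio for 8 of the 9 genes, *TRIB3* being the exception, and 34.0% of all tested probes were lowest on that array. Array 1 gave the highest ratio for 7 of the 9, all but *ASNS* and *DDIT3*, beside 31.7% of all tested probes. Of the 9 genes, 8, 6, 6 and 2 were above 0 on arrays 1 to 4, while the share of all tested probes above 0 was 51.1%, 52.2%, 55.4% and 52.3%. The group's median was 0.37, 0.17, 0.09 and −0.14, and that of all tested probes was 0.01, 0.01, 0.03 and 0.02. The group's median thus lay above that of all tested probes on array 1 and under it on array 4, although *DDIT3* was below 0 on array 1 and *TRIB3* and *SESN2* were above 0 on array 4. Of 10 lists of related genes described below, 9 had their lowest median on array 4 and 8 their highest on array 1, so the order is not particular to the ATF4 response genes. Differences between the cultures of an array and in its labelling or hybridisation cannot be told apart. Every one of the 9 genes had an SD above the median of all tested probes, from 0.20 for *SHMT2* to 0.69 for *ASNS*.

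The dye normalisation changed which genes passed. The plot of 4 normalisations shows *TRIB3* past the threshold in each, while *ATF4*, *PHGDH* and *SHMT2* passed only in those without lowess. With normexp background correction throughout, probes within 0.5 log2 units of the brightness of *ATF4*, 904 in number, had a median log2 ratio of −0.06 with loess and 0.30 without it, while *ATF4* itself had −0.05 and 0.32. *ATF4* thus moved as probes of its brightness did. The 2890 probes as bright as *SESN2* had a median of 0.01 with loess and −0.21 without it, and *SESN2* had 0.24 and −0.01. With the deposited ratios the probes had a median of 0.05 and *SESN2* a mean of 0.54, so that *SESN2* was above its neighbours in brightness in all 3 cases. For *TRIB3*, with 3207 such probes, the median was 0.00 with and without loess, and its own mean was 0.40 both times. When ratios without lowess were centred on all probes in place of the tested ones, the median of the tested probes moved up by 0.15, and all 9 means were above 0. *PSAT1* then passed as well (mean 0.31, adjusted *P* = 0.0458, in a range up to 0.915 over the alternatives), so that 5 genes did, while *SESN2* (0.15) did not.

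**Figure D3:**
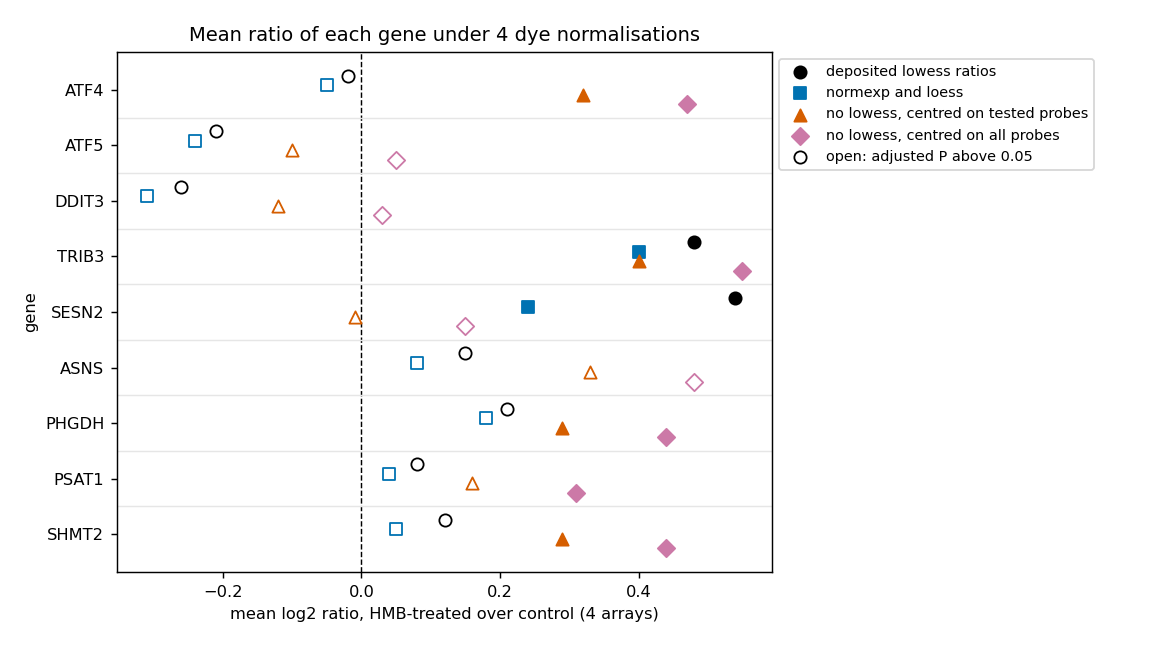
Mean log2 ratio of each gene over 4 arrays with the deposited lowess ratios and with 3 other dye normalisations, filled where the adjusted *P* was at most 0.05. *SESN2* ran from −0.01 to 0.54 and *ATF4* from −0.05 to 0.47, while *TRIB3* ran from 0.40 to 0.55.

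The genes around the pathway were read from 10 lists that hold 184 genes, of which 147 were tested. In these lists 22 genes passed, 14 higher and 8 lower (15.0%), and the median of the 147 was 0.05. This share is under the 22.8% of all tested probes, as the plot of lists shows. All 22 had the same sign on 4 of 4 arrays. The 22 became 12, 6, 4 and 14 without arrays 1, 2, 3 and 4, 39 without lowess, and 52, of which 49 were higher, with centring on all probes. With both channels above background 21 of 143 passed. With normexp and loess 17 passed, and among the genes named below the calls of *ATF3*, *TRIB2*, *JDP2*, *MTR*, *DEPDC5*, *NPRL2*, *CASTOR2* and *CARS1* were lost. The calls of 4 genes held with any 1 array left out, *HERPUD1*, *CDKN1A*, *KLHL24* and *RRAGD*.

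**Figure D4:**
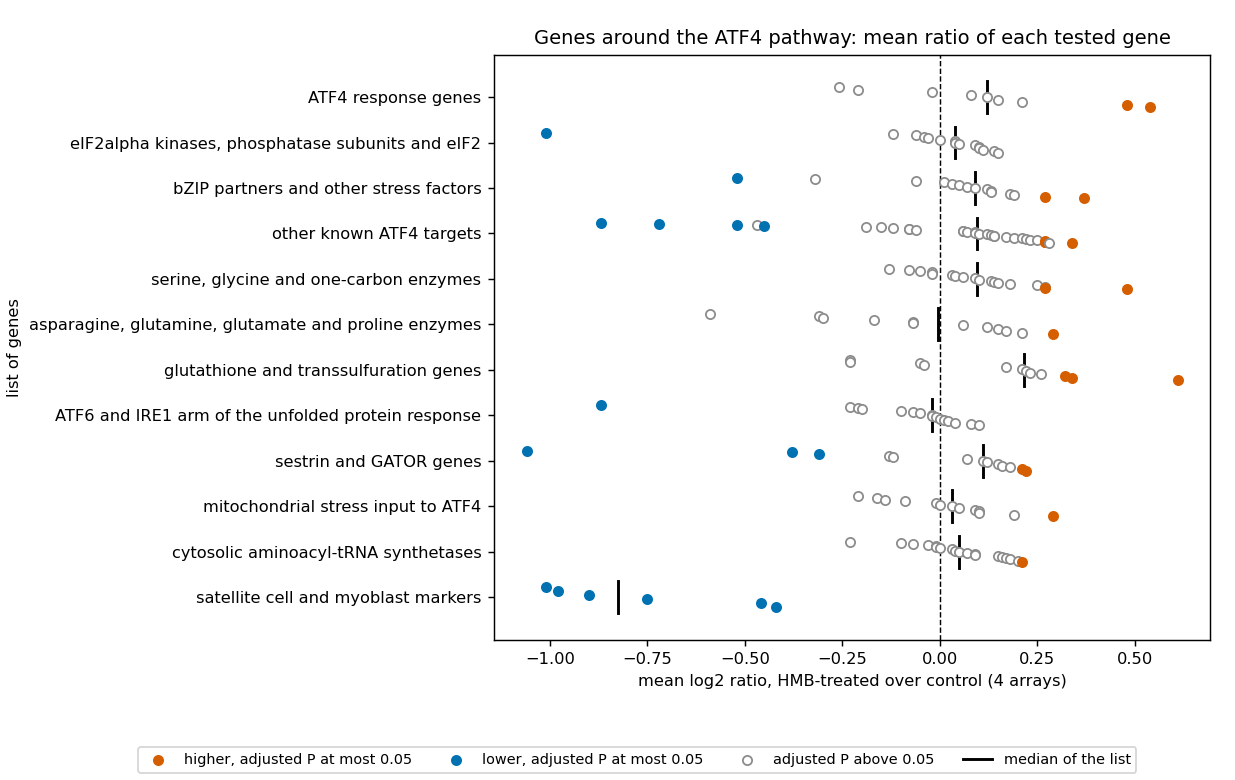
Mean log2 ratio of each tested gene in the group, in the 10 lists around it and among the satellite cell and myoblast markers, coloured where the adjusted *P* was at most 0.05, with the median of each list as a black line. The medians of the 10 lists ran from −0.02 to 0.22 and that of the markers was −0.83.

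Upstream of ATF4, 4 kinases phosphorylate eIF2α. GCN2 (*EIF2AK4*), which answers to uncharged transfer RNA, gave log2 ratios of −0.10, 0.09, 0.23 and 0.00 (mean 0.05, adjusted *P* = 0.636), its sign depending on array 3, without which the mean was −0.01. PERK (*EIF2AK3*), which answers to unfolded protein in the endoplasmic reticulum, had a mean of −0.06 (adjusted *P* = 0.789), which became 0.13 without array 4 and 0.01 with centring on all probes. HRI (*EIF2AK1*), the haem-regulated kinase, had log2 ratios of 0.24, −0.05, −0.05 and −0.15 (adjusted *P* = 0.984), and its mean, next to 0, changed sign without array 2, 3 or 4 (0.01, 0.01 and 0.05) and with centring on all probes (0.06). PKR (*EIF2AK2*) is induced by interferon and binds double-stranded RNA. Among 15 tested genes for these kinases, the eIF2 subunits and the phosphatase it alone passed the threshold (6.67%, beside 22.8% of all tested probes). It fell on 4 of 4 arrays, with log2 ratios of −1.28, −0.38, −2.00 and −0.39 (adjusted *P* = 0.0441). The fall was deep on arrays 1 and 3 and shallow on arrays 2 and 4, and its call was lost without array 1 (adjusted *P* = 0.128) or array 3 (0.0846).

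Of 15 bZIP partners and other stress factors, 2 rose and 1 was counted as lower. The latter was *ATF3*, for a bZIP factor that ATF4 switches on in stress, with log2 ratios of −0.04, −0.71, −0.57 and −0.75 (adjusted *P* = 0.0323). Its control signal was above background on all 4 arrays and its HMB-treated signal on array 1 only, so it entered the test through the channel where it was high, and the size of its ratio is not reliable. The mean was −0.52 with the deposited ratios and −0.16 with normexp and loess. *TRIB2*, a pseudokinase of the same family as *TRIB3*, rose by 0.37 (adjusted *P* = 0.0353, higher on 4 of 4 arrays), although its mean was 0.18 with normexp and loess and 0.00 without lowess. *JDP2*, a bZIP partner of JUN, rose by 0.27 (adjusted *P* = 0.0267). Each of these calls was lost with 1 array left out, that of *ATF3* without array 2, 3 or 4 (adjusted *P* = 0.114, 0.107 and 0.0878), that of *TRIB2* without array 1, 2 or 3 (0.094, 0.141 and 0.118) and that of *JDP2* without array 2, 3 or 4 (0.125, 0.113 and 0.0562).

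Among 32 other known ATF4 targets, 4 were higher and 4 lower past the threshold, and the median was 0.10. This share, 25%, is near the 22.8% of all tested probes, and the 8 genes became 5, 3, 3 and 6 without arrays 1 to 4, and 12, of which 11 were higher, with centring on all probes. The largest ratios past the threshold were below 0, and *ATF3* is in this list too. *HERPUD1*, which serves the disposal of proteins from the endoplasmic reticulum, had log2 ratios of −0.60, −0.83, −0.99 and −1.06 (adjusted *P* = 0.00305). *CDKN1A*, the cell cycle inhibitor p21, had −0.48, −0.61, −0.75 and −1.05 (adjusted *P* = 0.00685). *KLHL24*, a kelch protein, had a mean of −0.45 ± 0.04 (adjusted *P* = 0.00541). The means of these 3 genes were below 0 in each alternative. Centring on all probes ended the calls of *HERPUD1* (−0.24) and *KLHL24* (−0.25), the methods' t-test those of *HERPUD1* (adjusted *P* = 0.0632) and *CDKN1A* (0.0864), and testing without the filter that of *CDKN1A* (0.0518). *HERPUD1* was also the 1 gene past the threshold among 16 (6.25%) of the ATF6 and IRE1 arm of the unfolded protein response. The median of these 16 was −0.02, with −0.05 by normexp and loess and 0.11 without lowess.

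Around the enzymes few genes passed, 11.1% in the list around serine and 8.33% in that around asparagine, beside 22.8% of all tested probes. In the list of serine, glycine and folate carbon metabolism *MTR*, the methionine synthase, rose by 0.27 ± 0.04 (adjusted *P* = 0.0225), but its mean was 0.06 with normexp and loess (adjusted *P* = 0.433) and −0.15 without lowess. Its call was lost without array 1 (adjusted *P* = 0.0512), array 2 (0.103) or array 3 (0.0908). Among 12 genes for asparagine, glutamine, glutamate and proline, *GOT2*, the mitochondrial aspartate aminotransferase, rose by 0.29 (adjusted *P* = 0.0363), a call lost with any array left out (0.0636, 0.117, 0.0936 and 0.0567 without arrays 1 to 4). Among 12 genes of glutathione and transsulfuration 3 rose and 0 fell by limma (7 had an unadjusted *P* under 0.05), with a median of 0.22. The 25% is near the 22.8% of all tested probes. Without arrays 1 to 4 the count was 2, 1, 0 and 1, and it was 0 with the methods' t-test, with separate channels and without the filter, where 4, 3 and 5 had an unadjusted *P* under 0.05, as had 4 by limma without array 3. It was 4 with normexp and loess and with a robust prior and intensity trend. Without lowess it was 5, of which 1 was lower, and with centring on all probes 5, all higher. The 3 genes called with the deposited ratios were *GGCT*, a γ-glutamylcyclotransferase, the kind of enzyme that CHAC1 is too, with log2 ratios of 0.32, 1.12, 0.51 and 0.50 (adjusted *P* = 0.0233), *CTH*, which makes cysteine (0.34, adjusted *P* = 0.0421), and *GSR*, the glutathione reductase (0.32, adjusted *P* = 0.0244). All 3 stood above 0 in each alternative. The call of *GGCT* was lost without array 3 (0.0666) or 4 (0.051), that of *GSR* without array 2 (0.118), 3 (0.0595) or 4 (0.0546), and that of *CTH* without array 1 (0.0975), 2 (0.137) or 3 (0.152).

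The list of sestrins and GATOR genes, through which SESN2 acts, had 5 of 13 genes past the threshold with the deposited ratios (38.5%, against 22.8% of all tested probes), but 3, 1, 1 and 1 without arrays 1 to 4, and 2, both lower, with normexp and loess. *SESN1*, a sestrin that answers to p53, fell, with log2 ratios of −0.10, −0.32, −0.40 and −0.71 (adjusted *P* = 0.042), where *SESN2* rose with lowess. *RRAGD*, a Rag GTPase that brings mTORC1 to the lysosome, had −1.10, −1.02, −0.86 and −1.28 (adjusted *P* = 0.00128). Its values were alike on all 4 arrays, and the fall passed the threshold in each of the 14 alternatives fitted by probe, although its mean of −1.06 was −0.53 with normexp and loess and −0.71 without lowess. Of the GATOR1 subunits *DEPDC5* fell (−0.31, adjusted *P* = 0.0256) but had −0.13 with normexp and loess (0.139) and −0.14 with centring on all probes (0.215), *NPRL2* rose (0.22, adjusted *P* = 0.0456) and *NPRL3* did not pass (−0.12, 0.344). A difference between them was not tested. The calls of *SESN1* and *DEPDC5* were lost without array 2 (adjusted *P* = 0.113 and 0.127), 3 (0.132 and 0.0836) or 4 (0.0732 and 0.0579), and that of *NPRL2* with any array left out (0.0555, 0.204, 0.165 and 0.0804). The fifth gene, *CASTOR2*, named after its values were seen, had a mean of 0.21 (adjusted *P* = 0.0497) that turned to −0.04 without lowess, where 5 of the 13 means lay above 0 against 8 with it, and its call too was lost with any array left out (0.0749, 0.231, 0.135 and 0.0857).

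Among 13 genes of mitochondrial stress *PHB1*, a prohibitin, rose (0.29, adjusted *P* = 0.0181), a call lost without array 2 (0.0927) or 3 (0.0714). Among 19 cytosolic aminoacyl-tRNA synthetases *CARS1*, the cysteine enzyme, rose (0.21, adjusted *P* = 0.0448), a call lost with any array left out (0.0857, 0.169, 0.139 and 0.0741). These single calls were 7.69% and 5.26% of the lists, beside 22.8% of all tested probes. In the synthetases 1 gene passed by limma with the deposited lowess ratios and 0 with normexp and loess, with 4 under an unadjusted *P* of 0.05 in each, while 9 passed without lowess and 15 with centring on all probes. The methods' t-test called 1, which was not *CARS1* (adjusted *P* = 0.0589 by that test).

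Markers of muscle cells moved in the same samples. The 6 tested markers of satellite cells and myoblasts, of 10 listed, all fell past the threshold, as did 11.6% of all tested probes. The median of the markers was −0.83, or −0.61 without lowess. Of them 6, 4, 4 and 4 passed without arrays 1 to 4, and 5 with centring on all probes, 4 with separate channels and 3 without the filter on dim probes. The methods' t-test called 0 of the 6, all 6 having an unadjusted *P* under 0.05. *MYF5*, an early myogenic factor, fell by a mean log2 ratio of 1.01 (adjusted *P* = 0.00157) and *DES*, the filament protein desmin, by 0.98 (adjusted *P* = 0.00683). *NCAM1* (−0.90) and *CHRNA1* (−0.75) came next. The falls of *MYOD1* (−0.46, adjusted *P* = 0.023) and *MYOG* (−0.42, adjusted *P* = 0.0222) were smaller, and their calls were lost without array 2, 3 or 4. Another *MYOD1* probe had a mean of −0.20. *PAX7*, *CDH15*, *ITGA7* and *MYMK* had no probe under their names. The median of these markers was −0.45, −0.74, −1.0 and −1.05 on arrays 1 to 4, so that it was highest on array 1 and lowest on array 4, where the ATF4 response genes too were highest and lowest. This order is not particular to them. Medians were 0.39, 0.12, 0.06 and −0.07 for fibroblast markers and −0.19, −0.28, −0.32 and −1.34 for smooth muscle and pericyte markers. Leukocyte markers were highest on array 1 too (0.08) but lowest on array 3 (−0.32). The summed signal of the satellite cell and myoblast markers, led by *DES*, was 29980, 22749, 20661 and 20675 in HMB-treated and 41496, 41150, 44864 and 46524 in control ESC. Of 8 fibroblast markers 6 were tested and 2 rose, *PDGFRA* (1.53, adjusted *P* = 0.00358, its mean being at least 0.78 in each alternative) and *FAP* (0.42, adjusted *P* = 0.0185, lost without array 1 at 0.0532, 2 at 0.0806 or 3 at 0.0752), while 3 rose with normexp and loess and 5 without lowess. With the deposited ratios 33.3% of these markers rose, beside 11.2% of all tested probes. *COL3A1* (−0.21) and *THY1* (−0.10), each lower on 3 of 4 arrays, *LUM* (0.01) and *DCN* (0.15) did not pass, and the median of the 6 was 0.08. This median was 0.22 with normexp and loess, 0.67 without lowess and 0.82 with centring on all probes. The mean of *COL3A1* ran from −0.39 to 0.91 over the 14 alternatives fitted by probe, changed sign in 3 and passed in 2. The methods' t-test called 0 of the 6, with 2 under an unadjusted *P* of 0.05, as by limma. Their summed signal, led by *COL3A1*, was 232096, 173721, 179970 and 180960 in HMB-treated and 182083, 177019, 191762 and 242890 in control ESC. None of the 5 endothelial markers and none of the 4 adipocyte markers with a probe passed the filter on dim probes, and *CD68* (−0.29) and *CD14* (0.02), the 2 leukocyte markers tested, did not pass. Of the 3 tested markers of smooth muscle and pericytes *MYH11* was counted as lower (adjusted *P* = 0.0368, lost without array 1 at 0.0809, 2 at 0.0706 or 3 at 0.0541). Its HMB-treated signal was above background on 3 arrays and its control signal on 4, so it entered through the channel where it was high and the size of its ratio is not reliable. *ACTA2* (−0.53) and *PDGFRB* (−0.01) did not pass. In such bulk RNA fewer cells of a type and less RNA per cell cannot be told apart, and the part of these shifts in the values of the ATF4 response genes was not tested.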

How the data were processed

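RNA of HMB-treated (Cy5) and control (Cy3) ESC was compared on 4 arrays. The authors made the deposited files with Feature Extraction, version 10.10.1.1 by the header of a deposited file and a different version by the study's methods. Their ratios are deposited as log10 of Cy5 over Cy3 after linear and lowess dye normalisation, and were multiplied by 3.32 to log2. The deposited signals are intensity values, either raw (spot mean and median local background) or background-subtracted, detrended and dye-normalised, and other deposited columns are marks of 0 or 1 set for each spot. The summary table holds the same log10 ratios, with a largest difference of 0 and a median of 0 on each array.

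Control spots and spots marked non-uniform or outlying (11, 17, 32 and 15 on arrays 1 to 4) were left out, and spots of a probe were averaged. Probes with the same channel well above background on 4 arrays and at least 3 values entered a two-sided empirical Bayes test of the intercept (R 4.3.3, limma 3.58.1), with the Benjamini and Hochberg adjustment over 27384 probes. An exact sign-flip test of 4 arrays cannot give a two-sided *P* under 0.125 and was not used. A gene was its tested probe of highest mean intensity. Further tools were data.table (1.17.8), pandas (2.3.3), numpy (2.4.6) and matplotlib (3.10.9) under Python (3.11.15). Of these steps only the limma fit was tried on simulated ratios, with a shift larger than any mean ratio of the group.

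Named are all 10 genes, all 4 eIF2α kinases, in each list up to 4 genes past the threshold with the largest mean ratios, and markers, except that the values of 1 gene are not reported. The genes and lists were chosen with earlier results of these data known. The alternatives were normexp background correction (offset 50) with loess or with median centring, the methods' t-test (given only in the study's supplementary workbook), a robust prior with intensity trend, unpaired separate channels, no filter, a filter on both channels, keeping marked spots, the values of the summary table, the mean of a gene's probes, each array left out in turn (at least 2 values), and, added after seeing the data, centring on all probes. A count of response elements in promoters was not run, as no horse promoters were at hand.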

Additional observations from a re-analysis of the deposited data

Results flagged for a closer look

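The log2 ratios of 49 genes (the ATF4 response genes, the probe described as *CHAC1*, and genes of the lists and markers) were examined for an array far from the others, by the gap to the nearest array as a share of the whole range. In 2 genes this ratio was above Dixon's 95% critical value for 4 samples, and chance alone marks about 1 in 20 groups. *GOT2* had 0.51 on array 1 with 0.24 as the next value, a ratio of 0.874. *ACTA2*, a smooth muscle actin, had −1.34 on array 4 with −0.32 as the next value, a ratio of 0.884. None of the 9 ATF4 response genes was marked in this way by Dixon's ratio, the nearest being *DDIT3* on array 4 with 0.787.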

How the results depend on the processing

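Over 15 alternatives the 9 ATF4 response genes gave 135 values. Of these 111 kept their direction and their side of the threshold, 11 kept the direction but lost the call, 5 kept the direction and gained a call, and 8 changed sign. Alternatives that change only the test, the filter or the source of the values reuse the deposited ratios of all 4 arrays. They could change a call but not a sign, so the share that kept its direction is partly fixed in advance. The 8 sign changes include the 2 values of *ATF4* that gained a call and the value of *SESN2* without lowess, which lost it. For the list genes taken by the naming rule, called or not, 216 of 329 values kept both, 105 lost the call and 8 changed sign. In the counts of genes past the threshold (ATF4 response genes, all tested probes or genes, genes of the lists), 2, 6257 and 22 called became 4, 7343 and 39 without lowess, 5, 7288 and 52 with centring on all probes, 0, 768 and 5 with the methods' t-test, 1, 2226 and 5 with separate channels, and 0, 3690 and 10 without the filter on dim probes. With the mean of each gene's probes 3447 of 15537 genes passed. Leaving out an array in turn gave 0 to 2, 2573 to 4955 and 4 to 14. Where the count was 0, limma without array 1 had 2 and without array 3 had 3, and limma without the filter and the methods' t-test each had 2 ATF4 response genes with an unadjusted *P* under 0.05, against 2 past the adjusted threshold by limma with the filter.

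Without lowess, with the background step changed as well, the sign changed for *ATF4* (0.32), *SESN2* (−0.01) and *MTR* (−0.15), as it did for *CASTOR2* (−0.04) alone among the called genes outside the naming rule, and with centring on all probes for *ATF4* (0.47), *ATF5* (0.05), *DDIT3* (0.03), *EIF2AK1* (0.06) and *EIF2AK3* (0.01). With 1 array left out the mean ran from −0.10 to 0.08 for *ATF4*, −0.09 to 0.40 for *ASNS*, −0.01 to 0.14 for *PSAT1*, −0.09 to 0.31 for the probe described as *CHAC1*, −0.09 to 0.05 for *EIF2AK1*, −0.18 to 0.13 for *EIF2AK3* and −0.01 to 0.10 for *EIF2AK4*. The cause of these changes was not tested. *TRIB3* kept its direction in all 15 alternatives and *SESN2* in 14, although only the dye normalisations and the omission of an array could change it. With the recomputed ratios the mean of *SESN2* was 0.24 with loess, −0.01 without lowess and 0.15 with centring on all probes. The low signal of *SESN2* over background limits how well its ratio is known, and 4 arrays on 1 slide, with fixed dyes and unnamed colts, limit every value.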
